A study of Mus musculus with 17 samples.

Results

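Erythropoietin (EPO) receptor, KIT and JAK-STAT5 genes were followed in cultured erythroid blasts of Spi1 transgenic mice. The set was chosen by name: the receptors Epor and Kit, the kinases Jak2 and Lyn, the transcription factors Stat5a and Stat5b, and the STAT5 target genes Cish, Socs2, Socs3 and Pim1. These were 10 of 26029 genes in the count table of model 1 and 10 of 24659 genes in that of model 2, and all 10 passed the filter on low counts in both. PolyA RNA was sequenced from 17 mice with 1 library per mouse. All mice carried the Spi1 transgene, which encodes the transcription factor SPI1 (PU.1), and all cells had been kept in culture with EPO.

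Mice of model 1 had the mixed strain background DBA2JxFVB/N and were either TgSpi1FA+/+ (with Fanca, a gene of the Fanconi anaemia DNA repair pathway) or TgSpi1FA−/− (with Fanca deleted). Each mouse is named by its stage (P for preleukaemic, L for leukaemic) and the number in its sample title. In model 1 the TgSpi1FA+/+ group was preleukaemic (P445, P479, P451 and P138, n = 4), and the TgSpi1FA−/− mice were preleukaemic (P77, P224 and P40, n = 3) or leukaemic (L26, L28 and L39, n = 3). Model 2 had 4 preleukaemic mice (P633, P663, P812 and P837) and 3 leukaemic mice (L601, L606 and L921), all TgSpi1FA+/+ of strain DBA2J. Leukaemic cells of model 2 came from animals that had gone through serial blood transfusion. The paper on these mice reports a Kit mutation in L26, Nras mutations in L28 and L39, and a Jak2 mutation in P445 and P451. It also reports Kit or Nras mutations at low frequency in P445, P479 and P138, and describes KIT gain-of-function mutations in leukaemic cells of the transfusion model. The part of these mutations in the values below was not tested. TgSpi1FA+/+ leukaemic mice of model 1 and TgSpi1FA−/− mice of model 2 were not analysed here, and strain and library protocol differed between the models. Since the RNA came from whole cultures, fewer cells of a type and less RNA per cell cannot be told apart in any value below.

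EPO binds its receptor EPOR on erythroid progenitors and activates the kinase JAK2, which is bound to the receptor. JAK2 phosphorylates STAT5A and STAT5B, which enter the nucleus and switch on target genes. Some of these targets, such as Cish and the Socs genes, encode inhibitors that act back on the receptor. KIT is the receptor of stem cell factor and cooperates with EPOR in the expansion of early erythroid cells, and LYN is a SRC family kinase that takes part in signalling from both receptors. The measurements below are of mRNA, and phosphorylation was not measured by them.

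The promoters of Epor and Cish are shown because they hold the letters of the motifs by which an erythroid factor and STAT5 are known to bind. Both come from RefSeq (GRCm38.p6), are written 5′ to 3′ on the strand of the gene, and have motif letters in capitals. The first covers chr9:21963577-21963826 on the minus strand and ends at the base before the start of Epor that RefSeq gives. That start lies upstream of the GENCODE span given for Epor below. The second covers chr9:107296409-107296678 on the plus strand and ends 20 bases into Cish.
Epor: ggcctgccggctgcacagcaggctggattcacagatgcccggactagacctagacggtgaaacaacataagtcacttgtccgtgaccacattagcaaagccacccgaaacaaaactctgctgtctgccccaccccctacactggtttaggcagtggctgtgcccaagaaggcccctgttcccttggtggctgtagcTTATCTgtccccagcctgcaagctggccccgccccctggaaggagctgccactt
Cish: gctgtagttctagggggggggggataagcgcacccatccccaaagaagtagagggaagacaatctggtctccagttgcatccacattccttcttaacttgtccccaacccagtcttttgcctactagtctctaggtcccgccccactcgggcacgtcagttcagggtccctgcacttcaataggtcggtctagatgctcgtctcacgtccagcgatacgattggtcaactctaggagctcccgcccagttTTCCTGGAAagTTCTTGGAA
The capitals in Epor spell TTATCT, which is the GATA motif AGATAA on the other strand, at position −54 from the RefSeq start. The capitals in Cish spell the STAT motif TTCNNNGAA, which reads the same on both strands, at positions 1 and 12 counted from the start that RefSeq gives. A promoter window of 250 bases before to 50 bases after the start was on hand for 8 of the 10 genes (not for Lyn and Socs2). Socs3 held 1 STAT motif (TTCTTAGAA at position −154), whereas those of Kit, Jak2, Stat5a, Stat5b and Pim1 held neither motif. Of all 32851 promoters of this length, 8.30% held TTCNNNGAA and 18.6% held AGATAA or TGATAA on either strand. Such a match describes the letters of the window and is not evidence of binding.

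Libraries of model 1 held 29964576 to 38217654 counts and those of model 2 held 37726753 to 40514205. Values are given as CPM, the count of a gene relative to the library size after TMM scaling. Fanca was at 0.615 to 2.30 CPM in the TgSpi1FA−/− libraries and at 28.1 to 83.5 CPM in the TgSpi1FA+/+ libraries. Spi1 was at 3.88 CPM in leukaemic L39 and at 103 CPM or more in the other 16 libraries. Erythroid markers were present, with 9 to 10 of the 10 listed genes above 1 CPM in each library. Summed markers of B cells, T cells and myeloid cells stayed at or under 2.09 CPM. The libraries P445 and P479 were more alike than other pairs of their group. Their root mean square difference was 0.43 in log2 CPM, against 1.22 to 1.45 for the other pairs. Relative to counting noise (chi-square divided by its degrees of freedom), they differed by 9.32, and the other pairs by 159 to 207. Whether P445 and P479 came from separate mice, or a label was swapped, cannot be told from these values and was not tested. For P77, P224 and P40 the column names say leukaemic and the sample titles say preleukaemic, and the titles were followed.

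The 10 genes covered a wide range of levels. Per kilobase of exon, the median over the 17 libraries was highest for Pim1 (69.0 CPM per kb) and Epor (54.1), followed by Jak2 (31.9), Kit (26.8), Stat5b (25.3), Lyn (22.5), Stat5a (14.8) and Cish (8.71). The lowest medians were those of Socs2 (3.33 CPM per kb) and Socs3 (0.304). Only for Socs2 and Socs3 did neighbours in this order have ranges over the libraries that did not overlap. Socs3 was counted 6 to 165 times per library. The ratio of the highest to the lowest library was 23.8 for Socs3 and 19.0 for Kit, between 3.63 and 5.09 for Epor, Jak2, Lyn, Stat5a, Cish, Socs2 and Pim1, and 3.01 for Stat5b. Kit and Socs3 thus had the widest ranges over the 17 libraries. For Socs3 the highest and the lowest library were both of model 1 (4.52 CPM in L26 and 0.190 in P479). For Kit they came from different models, with 811 CPM in L26 of model 1 and 42.7 CPM in P812 of model 2. Within model 1 Kit was at 203 to 811 CPM, and within model 2 at 42.7 to 253 CPM. The ratio for Kit therefore includes any difference between the models, and its part was not tested.

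**Figure D1:**
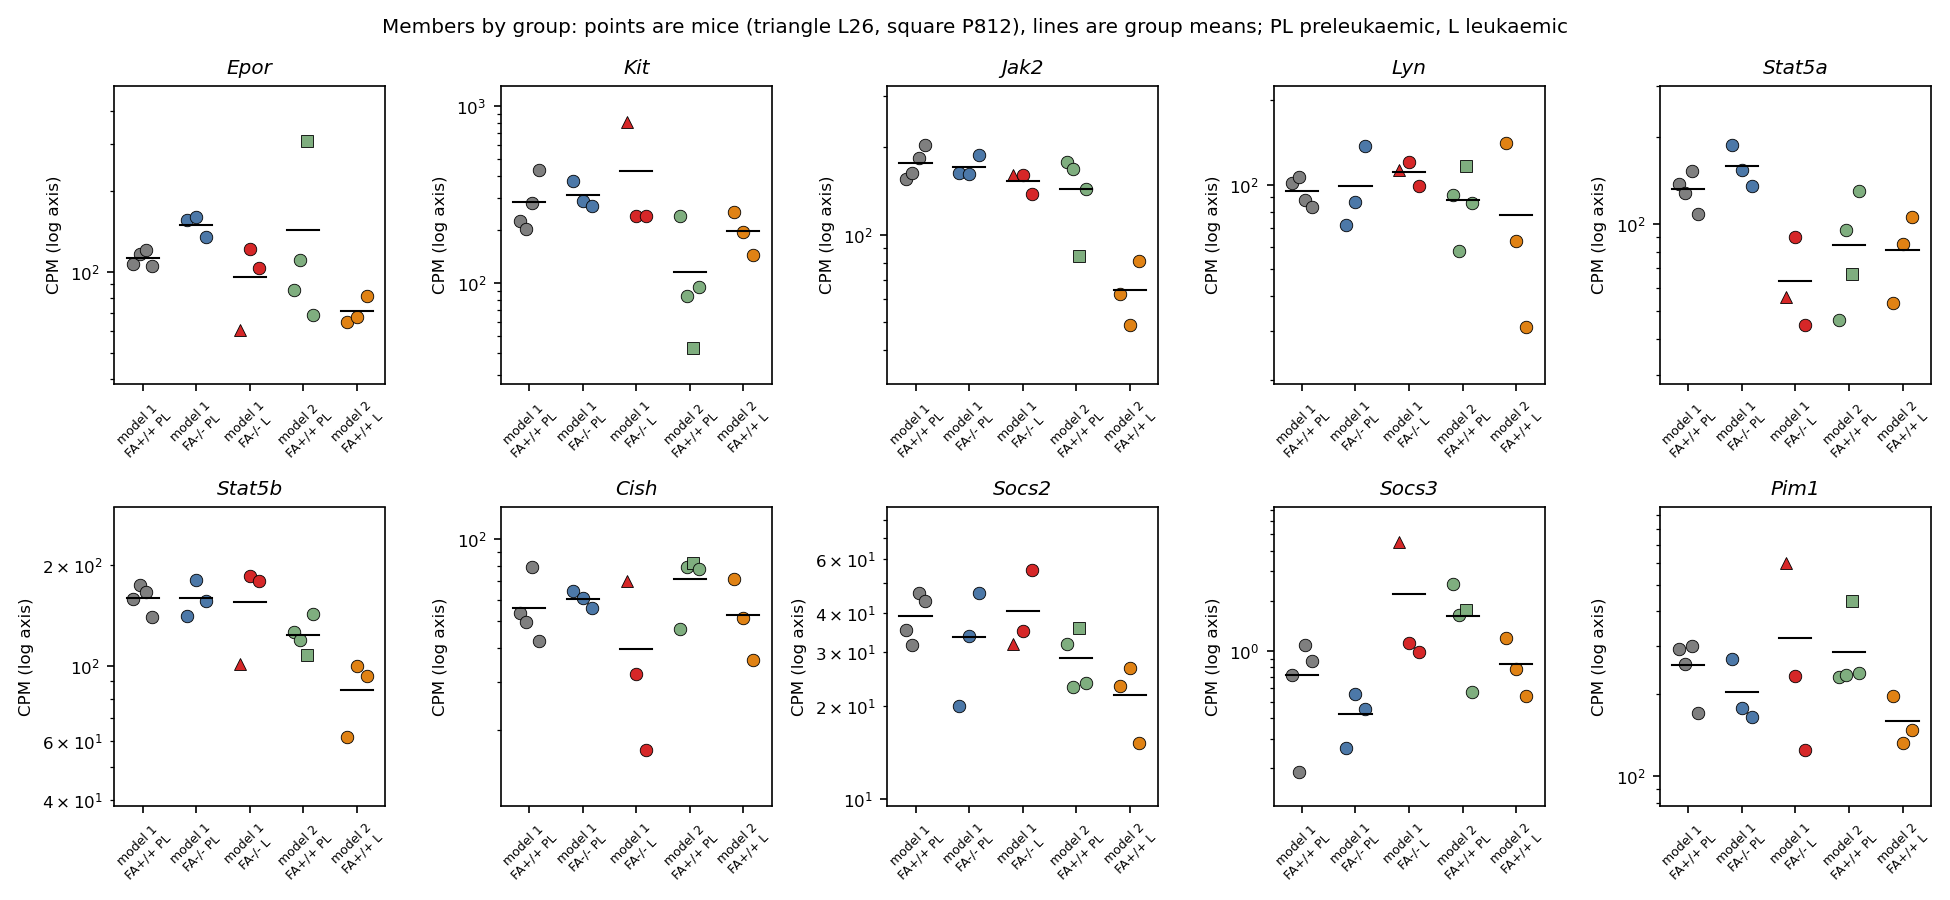
CPM of each gene in each of the 17 libraries on a log axis, by genotype, stage and model, with a point for each mouse and a line at the mean of the group. Within model 1, Stat5a is lowest in the TgSpi1FA−/− leukaemic libraries (44.4 to 90.1 CPM), and single mice such as L26 for Kit (811 CPM) and P812 for Epor (310 CPM) lie far above their groups.

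Differences between groups were tested for all genes with edgeR's quasi-likelihood test, and a gene was called changed if its fold change reached 1.5 and its p, adjusted by the Benjamini-Hochberg method, was under 0.05. All adjusted p-values below come from that test unless another is named. Stat5a was the only one of the 10 genes called between TgSpi1FA−/− leukaemic and preleukaemic cells, where 13.3% of all 13393 tested genes were called. Libraries of these groups did not overlap for 4 of the 10 genes (Epor, Jak2, Stat5a and Socs3), against 38.7% of all genes. Between TgSpi1FA−/− and TgSpi1FA+/+ preleukaemic cells 0 of the 10 genes were called, and 0.00747% of all genes were (1 gene, the pseudogene Rpsa-ps10). In that comparison 0 of the 10 genes had an unadjusted p under 0.05, DESeq2's Wald test called 0 of them, and 1 (Epor) had groups that did not overlap, against 8.53% of all genes. Stat5a was again the only one of the 10 genes called between TgSpi1FA−/− leukaemic and TgSpi1FA+/+ preleukaemic cells of model 1, with 7.01% of all genes called. There it was also the only gene of the set whose groups did not overlap, against 25.7% of all genes. Genotype and stage both differ in that comparison and cannot be told apart.

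In model 2, 0 of the 10 genes were called between leukaemic and preleukaemic cells, and so were 0% of all 12970 genes. Of the 10 genes 3 had an unadjusted p under 0.05 (2587 of all genes), and DESeq2's Wald test called 0 of the 10 and 470 of all genes. Groups did not overlap for Jak2, Stat5b and Pim1, against 20.1% of all genes. The fitted log2 fold change was below 0 for 9 of the 10 genes, with a median of −0.49 against −0.03 over all genes. In TgSpi1FA−/− cells the corresponding split was 5 above and 5 below 0, with a median of 0.07 against −0.00 over all genes. The smallest p that an exact permutation test can give is 0.100 for 3 against 3 mice and 0.0571 for 3 against 4, so that single values were not tested past 0.05 in that way.

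**Figure D2:**
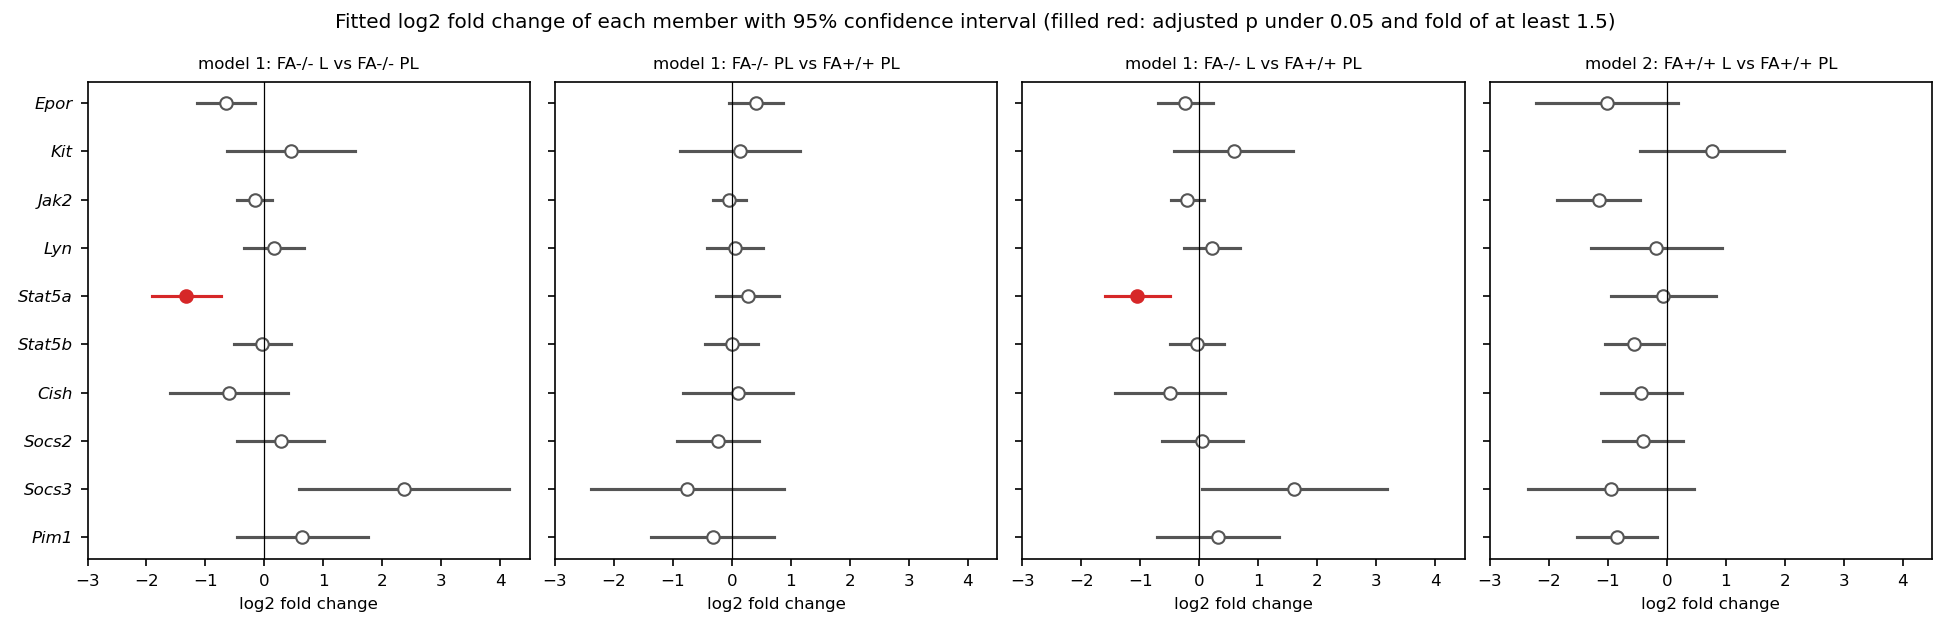
Log2 fold change of each gene with its 95% confidence interval in 4 comparisons, from edgeR's fits. The interval of Stat5a lies below 0 in both comparisons of TgSpi1FA−/− leukaemic cells (−1.32 and −1.05), and in model 2 all estimates but that of Kit lie below 0.

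Epor (chr9:21958897-21963506, minus strand), which encodes the EPO receptor, had its highest level of model 1 in TgSpi1FA−/− preleukaemic cells. It was at 108 CPM in P445, 116 in P479, 120.4 in P451 and 106 in P138 (TgSpi1FA+/+ preleukaemic), at 156 in P77, 160.3 in P224 and 135 in P40 (TgSpi1FA−/− preleukaemic), and at 60.9 in L26, 121 in L28 and 104 in L39 (leukaemic). Each TgSpi1FA−/− preleukaemic library was thus above each TgSpi1FA+/+ preleukaemic library and each leukaemic library. The 73 tested genes within 2 Mb of Epor had medians of the same sign, with a median log2 fold change of 0.22 between the preleukaemic groups (0 called) and of −0.35 between leukaemic and preleukaemic TgSpi1FA−/− cells (11 called). Relative to the median of the other mice, these neighbours had a median of 0.44 in P77, 0.33 in P224 and −0.20 in P40. The difference between the preleukaemic groups was 0.42 ± 0.20 (log2, SE), with an adjusted p of 0.603. The difference between leukaemic and preleukaemic TgSpi1FA−/− cells was −0.66 ± 0.22 with a 95% interval of −1.15 to −0.16, and its adjusted p of 0.0753 missed the threshold. Against the TgSpi1FA+/+ preleukaemic cells, the leukaemic cells differed by −0.24 (adjusted p = 0.493), and without L26 by −0.00.

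In model 2, Epor was at 85.8 CPM in P633, 111 in P663, 310 in P812 and 69.3 in P837 (preleukaemic) and at 65.2 in L601, 67.7 in L606 and 81.3 in L921 (leukaemic). The single library P812 set the mean of the preleukaemic group (144 ± 112 CPM, SD, n = 4), and the groups overlapped. The log2 fold change of −1.01 ± 0.52 had an adjusted p of 0.316, and it was −0.28 without P812 (adjusted p = 0.481).

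Kit (chr5:75574916-75656722, plus strand), the stem cell factor receptor, had a single library far above the others in model 1. TgSpi1FA+/+ preleukaemic libraries had 223 CPM in P445, 203 in P479, 283 in P451 and 435 in P138, and TgSpi1FA−/− preleukaemic libraries had 378 in P77, 292 in P224 and 273 in P40. Of the leukaemic libraries, L26 had 811 CPM, whereas L28 and L39 both had 239 CPM. The leukaemic group thus held the highest value next to values below those of all 3 TgSpi1FA−/− preleukaemic libraries. The fold change against TgSpi1FA−/− preleukaemic cells was 0.45 ± 0.48 (log2, SE; adjusted p = 0.558), and without L26 its sign turned (−0.39). Against TgSpi1FA+/+ preleukaemic cells it was 0.59 (adjusted p = 0.433), and −0.26 without L26.

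In model 2, Kit was the only one of the 10 genes with a positive estimate. It was at 239 CPM in P633, 84.3 in P663, 42.7 in P812 and 95.3 in P837, and in leukaemic cells at 253 in L601, 193 in L606 and 143 in L921. The groups overlapped through P633, and the log2 fold change of 0.77 ± 0.53 had an adjusted p of 0.454. Of the 8 listed mast cell markers, which belong to another lineage that has KIT, 6 were above 1 CPM in each leukaemic library of model 2. Their summed level was 159 to 211 CPM there and 31.2 to 94.9 CPM in the preleukaemic libraries, where 3 to 4 were above 1 CPM. Differences of the tested markers ran from 0.32 for Fcer1a (log2; adjusted p = 0.871) to 4.94 for Ms4a2 (adjusted p = 0.162). Hdc was at 4.68 to 107 CPM in leukaemic and 17.1 to 38.4 CPM in preleukaemic libraries. The part of the mast cell markers in the Kit values was not tested.

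The genes around a member on the chromosome were compared with it in each library, and 3 pairs of gene and mouse are described in most detail. They were chosen after their values had been seen, and others went the same way, among them Socs3 in P451, with 25 of 61 neighbours at least 1.5-fold up against 12.9% of all genes. For each library, log2 CPM was taken relative to the median of the other mice of the same table. Epor was 2.04 above that median in preleukaemic P812, and the 68 expressed genes within 2 Mb of it had a median of 1.32. Of these 68 neighbours 55 were at least 1.5-fold above the other mice, compared with 15.6% of all genes in that library. The difference ended within the next interval on one side, since 3 of 17 genes lying 2 to 10 Mb away at higher coordinates were up by that much, and at lower coordinates 11 of 25 were.

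Kit was 1.57 above the median of the other mice in leukaemic L26, and its 27 neighbours had a median of 0.83. Of these, 18 were at least 1.5-fold up, against 21.3% of all genes in that library. Medians for intervals with expressed genes between 20 Mb before and 20 Mb after Kit were 0.63 to 1.27, and they were −0.04 and 0.02 in the next 10 Mb on either side. In the other mouse with high Kit among the TgSpi1FA+/+ preleukaemic libraries, P138, the neighbours had a median of −0.05 while Kit itself was 0.67 above. Mast cell markers summed to 209 CPM in P138 and to 17.99 to 21.3 CPM in the other 3 libraries of its group. Hdc (115 CPM) and Ms4a2 (87.3 CPM) made up most of the sum in P138. Fcer1a had its lowest value of the group there (2.24 CPM, where the highest was 7.27). The part of these markers in the Kit value was not tested. Jak2 was 1.02 above in preleukaemic P663 of model 2, where 11 of 23 neighbours were up (15.7% of all genes), and 76 of 99 genes at 10 to 20 Mb after Jak2 were up too. It was as high in P633 of the same group (1.10 above), where 5 of 23 neighbours were up against 24.2% of all genes, and 0.79 above in P837 with 4 of 23 against 24.7%. DNA of these cells was not analysed here, although the paper reports exome sequencing with copy number calls on blasts of mice that included L26.

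**Figure D3:**
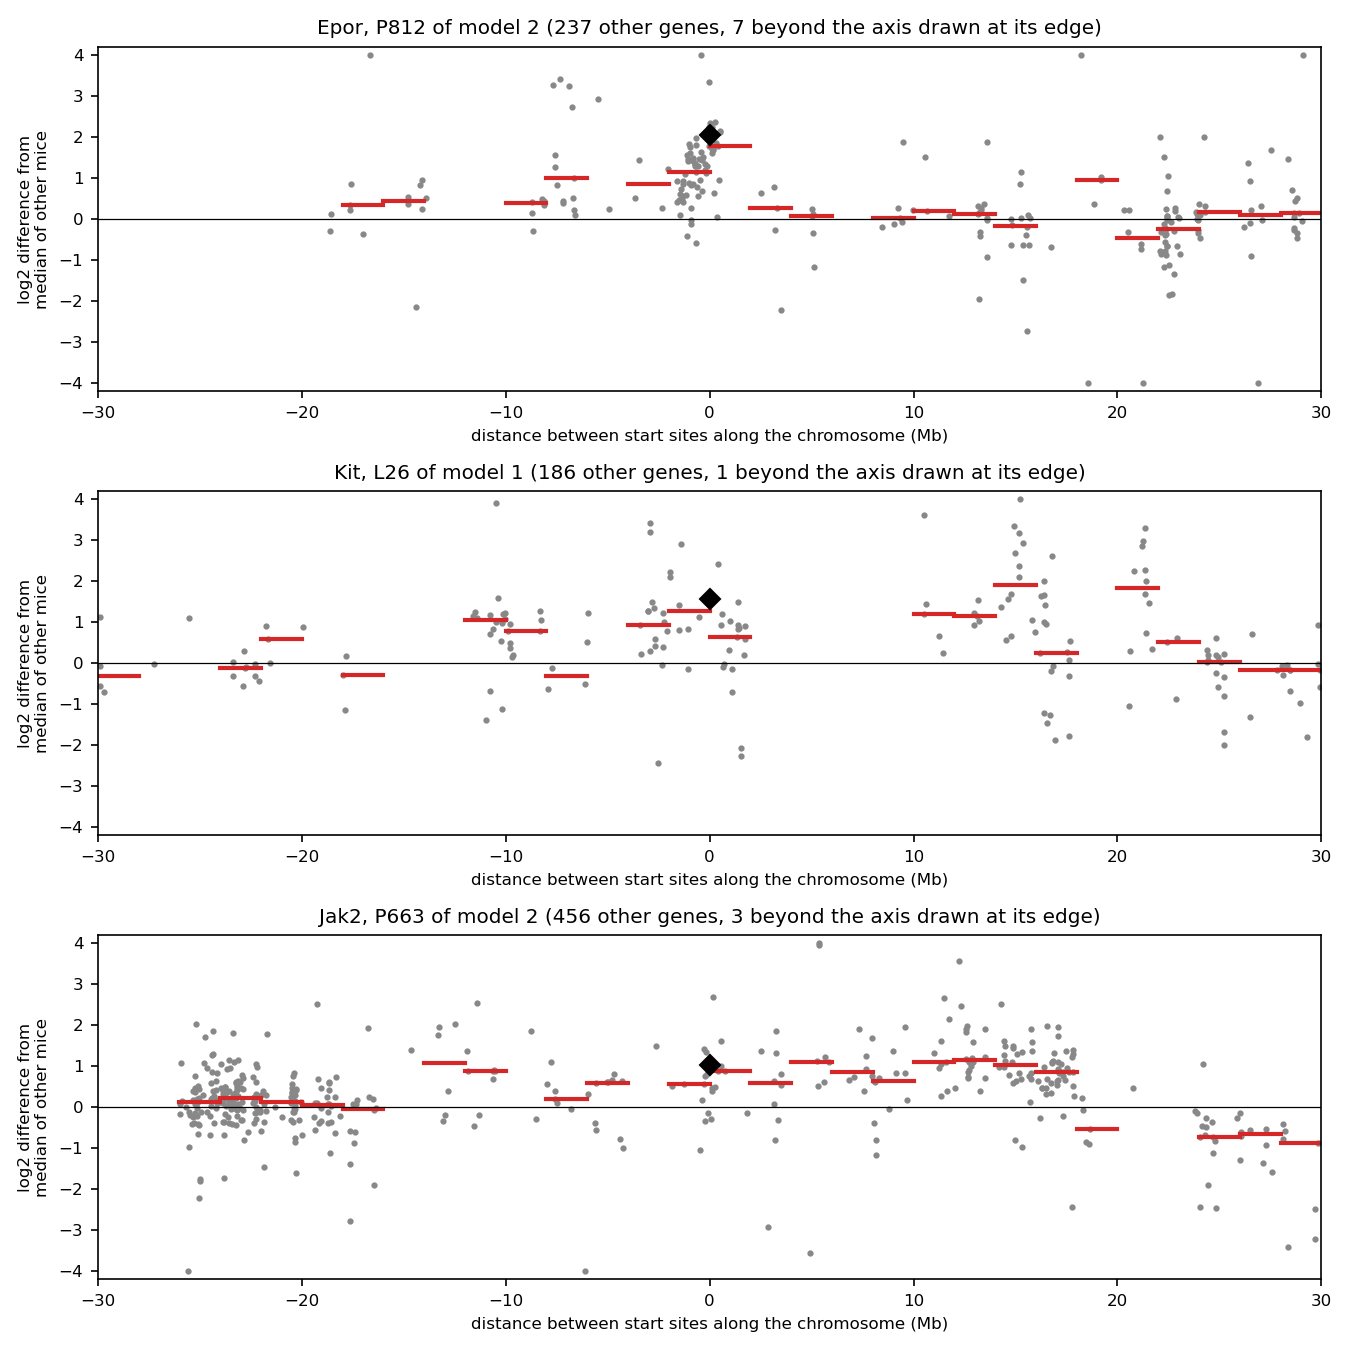
Log2 CPM of genes around Epor in P812, Kit in L26 and Jak2 in P663, relative to the median of the other mice, plotted against the distance in Mb from the start of the named gene (diamond), with red lines at the median per 2 Mb and points beyond ±4 drawn at the edge. Points near the centre lie above 0 in the panels for Epor (median 1.32 within 2 Mb) and Kit (0.83), and less so in that for Jak2 (0.56).

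Jak2 (chr19:29251828-29313080, plus strand), the kinase bound to EPOR, differed little in model 1. It was at 156, 162, 184 and 203 CPM in the TgSpi1FA+/+ preleukaemic P445, P479, P451 and P138, at 163, 162 and 188 in the TgSpi1FA−/− preleukaemic P77, P224 and P40, and at 160.0, 160.3 and 137.998 in the leukaemic L26, L28 and L39. The leukaemic libraries lay below the TgSpi1FA−/− preleukaemic ones by a narrow margin (−0.16 log2, adjusted p = 0.431). In model 2 the preleukaemic libraries had 177 CPM in P633, 168 in P663, 84.3 in P812 and 143 in P837, and the leukaemic ones 62.5 in L601, 48.8 in L606 and 81.3 in L921. All leukaemic libraries were below all preleukaemic ones, although P812 came close to L921. The log2 fold change was −1.16 ± 0.30 with a 95% interval of −1.86 to −0.45. Its unadjusted p in edgeR's test was 0.00556 and its adjusted p 0.162, which was the lowest adjusted p in that comparison and was shared with other genes. Without P812 the fold change was −1.31 (adjusted p = 0.0681).

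Lyn (chr4:3678115-3813122, plus strand), a SRC family kinase, was called in none of the comparisons. Its level was 83.3 to 106 CPM in TgSpi1FA+/+ preleukaemic, 71.5 to 137.7 in TgSpi1FA−/− preleukaemic and 98.8 to 121 in leukaemic mice of model 1. The preleukaemic libraries of model 2 had 58.1 to 117 CPM, and the leukaemic mice differed among themselves, with 140.4 CPM in L601, 62.9 in L606 and 31.0 in L921. Fold changes were 0.17 (log2; adjusted p = 0.651) in TgSpi1FA−/− cells and −0.17 (adjusted p = 0.870) in model 2. Genes annotated on the opposite strand overlap Lyn, Cish, Pim1 and Stat5a. The libraries mark strand, but the strand setting of the counting is not given in the sources used here.

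Stat5a (chr11:100859351-100885169, plus strand) fell in TgSpi1FA−/− leukaemic cells. It was at 137.5 CPM in P445, 128 in P479, 153 in P451 and 108 in P138 (TgSpi1FA+/+ preleukaemic), and at 188 in P77, 154 in P224 and 135 in P40 (TgSpi1FA−/− preleukaemic). The leukaemic libraries had 55.9 CPM in L26, 90.1 in L28 and 44.4 in L39. Each leukaemic library was below each preleukaemic library of either genotype. The log2 fold change was −1.32 ± 0.26 (SE) against TgSpi1FA−/− preleukaemic cells, with a 95% interval of −1.90 to −0.74 and an adjusted p of 0.0165. Against TgSpi1FA+/+ preleukaemic cells it was −1.05 ± 0.24, with an interval of −1.60 to −0.50 and an adjusted p of 0.0365. The first call was kept with each mouse left out except P224 (adjusted p = 0.0539). The second was lost without L26 (0.0571), L39 (0.107), P445 (0.0936), P451 (0.0774) or P479 (0.0900), with only these groups in the fit (0.0627), and with P445 and P479 averaged (0.0904) or left out (0.186). The direction was the same in all of these.

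Stat5b (chr11:100780731-100850724, minus strand), the neighbour and close paralogue of Stat5a, was not called. In model 1 it was at 158, 173, 166 and 140.2 CPM in the TgSpi1FA+/+ preleukaemic libraries (P445, P479, P451, P138), at 140.4, 180.2 and 156 in the TgSpi1FA−/− preleukaemic ones (P77, P224, P40), and at 102, 185 and 178 in the leukaemic L26, L28 and L39. Leukaemic L28 and L39 were thus within or just above the preleukaemic range, and the fold change was −0.04 (log2; adjusted p = 0.930). In model 2, Stat5b was at 108 to 142 CPM in preleukaemic and at 61.4, 99.9 and 93.1 CPM in leukaemic libraries (L601, L606, L921), which did not overlap. That fold change was −0.55 ± 0.21 with an adjusted p of 0.218. Stat5a in model 2 was at 46.4, 94.9, 66.7 and 129 CPM in the preleukaemic P633, P663, P812 and P837 and at 52.9, 85.2 and 105 CPM in the leukaemic libraries, with a fold change of −0.06 (adjusted p = 0.951).

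The ratio of Stat5a to Stat5b counts within a library does not depend on the scaling of that library. It was 0.870, 0.740, 0.920 and 0.770 in the TgSpi1FA+/+ preleukaemic P445, P479, P451 and P138 and 1.34, 0.855 and 0.864 in the TgSpi1FA−/− preleukaemic P77, P224 and P40. In the leukaemic libraries it was 0.550 in L26, 0.488 in L28 and 0.249 in L39, all below the 7 preleukaemic libraries. The mean log2 ratio was lower by −1.30 against TgSpi1FA−/− preleukaemic cells (exact permutation test, two-sided p = 0.100, n = 3 against 3, the smallest it allows) and by −1.02 against TgSpi1FA+/+ preleukaemic cells (exact p = 0.0571, n = 3 against 4, again the smallest). In model 2 the ratio was 0.368, 0.794, 0.619 and 0.909 in the preleukaemic P633, P663, P812 and P837 and 0.861, 0.853 and 1.13 in the leukaemic libraries. There the difference was 0.56 (exact permutation test, p = 0.171, n = 3 against 4) and the groups overlapped. The 4 permutation p-values of this ratio within the first tables, the fourth being 0.343 between preleukaemic groups (difference 0.28), were not adjusted. The protein-coding transcripts of both genes share 608 windows of 50 bases, which is 14.7% of the windows of Stat5a and 11.1% of those of Stat5b. A read of 50 bases from such a window cannot be assigned to 1 of the genes by sequence alone. Longer or paired reads may reach beyond a window, so that these are not shares of the reads in these libraries. Stat3, which overlaps Stat5a on the opposite strand, differed by −0.12 in TgSpi1FA−/− leukaemic cells (log2; adjusted p = 0.887).

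**Figure D4:**
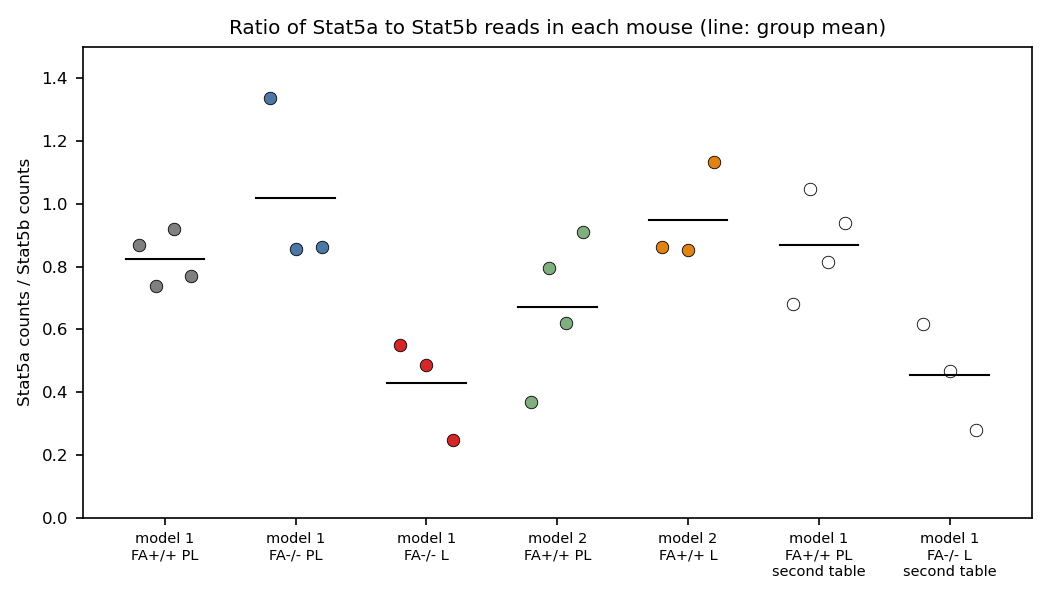
Ratio of Stat5a to Stat5b counts in each library on a linear axis from 0, by group, with a point for each mouse, a line at the group mean and open points for the second count table of model 1. Leukaemic TgSpi1FA−/− libraries lie at 0.249 to 0.550 in the first table, below the 0.740 to 1.34 of the preleukaemic libraries of model 1.

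Other features of the cells moved with the fall of Stat5a in TgSpi1FA−/− leukaemic cells. The summed level of the 10 erythroid markers was 2163 to 3549 CPM in leukaemic and 3459 to 4673 CPM in TgSpi1FA−/− preleukaemic libraries, with Klf1, a transcription factor of erythroid maturation, falling by 1.27 (log2; adjusted p = 0.00626). Gata1 differed by −0.33 (adjusted p = 0.170). The summed level of 7 megakaryocyte markers was 174 to 276 CPM against 45.7 to 60.2 CPM, and Itga2b rose by 3.20 (0.00472). Itga2b made up most of that sum, at a mean of 180 CPM against 19.5 CPM. At a far lower level, Vwf was also called (2.89, adjusted p = 0.0308), with 1.10 to 3.09 CPM against 0.129 to 0.460 CPM. Pf4, Gp1ba, Gp9 and Ppbp were not called. In the TgSpi1FA+/+ preleukaemic libraries these markers summed to 60.9 to 205 CPM. Their part in the Stat5a change was not tested.

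Cish (chr9:107296026-107302784, plus strand) encodes an inhibitor of STAT5 activation at the receptor. The STAT motifs shown above lie at the start that RefSeq gives, which is inside this GENCODE span, since GENCODE begins the gene further upstream. It was at 53.5 CPM in P445, 49.6 in P479, 79.2 in P451 and 42.3 in P138, and at 64.8 in P77, 60.7 in P224 and 55.9 in P40. The leukaemic libraries differed among themselves, with 70.2 CPM in L26, 32.2 in L28 and 16.9 in L39. The latter pair was below all 7 preleukaemic libraries and L26 above 6 of them. The fold change against TgSpi1FA−/− preleukaemic cells was −0.60 ± 0.44 (log2, SE; adjusted p = 0.379). Without L26 it was −1.29 with an adjusted p of 0.0360, and against TgSpi1FA+/+ preleukaemic cells −1.19 with an adjusted p of 0.0455, where all libraries gave −0.50 (0.478). Whether Cish passed the test thus rested on L26. In model 2, Cish was at 46.8, 79.2, 81.5 and 77.7 CPM in the preleukaemic P633, P663, P812 and P837 and at 71.2, 51.5 and 36.1 CPM in the leukaemic L601, L606 and L921 (−0.43, adjusted p = 0.453).

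Pim1 (chr17:29490753-29496112, plus strand), a STAT5 target that encodes a survival kinase, showed a like spread. It was at 291, 258, 299 and 170 CPM in the TgSpi1FA+/+ preleukaemic P445, P479, P451 and P138, at 268, 178 and 165 in the TgSpi1FA−/− preleukaemic P77, P224 and P40, and at 598 in leukaemic L26, 232 in L28 and 125 in L39. Leukaemic L26 had the highest and L39 the lowest value of the table. The fold change against TgSpi1FA−/− preleukaemic cells was 0.65 ± 0.50 (adjusted p = 0.403), and −0.18 without L26. In model 2 the preleukaemic libraries had 229.7, 233 and 237 CPM in P633, P663 and P837 and 435 in P812. All 3 leukaemic libraries were lower, with 196 CPM in L601, 132 in L606 and 148 in L921 (−0.84 ± 0.29, adjusted p = 0.188). In the library L26, Kit, Pim1, Cish and Socs3 were each the highest of the 3 leukaemic libraries, and Epor, Stat5b and Socs2 the lowest.

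Socs3 (chr11:117966079-117970047, minus strand) and Socs2 (chr10:95385362-95417180, minus strand) encode inhibitors of cytokine signalling. Socs3 was at 0.718, 0.190, 1.09 and 0.880 CPM in the TgSpi1FA+/+ preleukaemic P445, P479, P451 and P138 and at 0.263, 0.556 and 0.453 in the TgSpi1FA−/− preleukaemic P77, P224 and P40. Leukaemic libraries had 4.52 CPM in L26, 1.12 in L28 and 0.989 in L39. They lay above the TgSpi1FA−/− preleukaemic libraries, but L39 and P451 overlapped. The fold change of 2.37 ± 0.79 had a wide 95% interval of 0.59 to 4.15 and an adjusted p of 0.0743, while DESeq2's Wald test gave 0.0152. In model 2, Socs3 was at 0.569 to 2.52 CPM in preleukaemic and 0.539 to 1.21 CPM in leukaemic libraries (−0.94, adjusted p = 0.420). Socs2 was at 31.6 to 46.4, 20.03 to 46.6 and 31.8 to 55.1 CPM in the groups of model 1 in the order above. In model 2 it was at 23.0 to 35.8 CPM in preleukaemic and 15.2 to 26.5 CPM in leukaemic cells. Its groups overlapped in each comparison, with fold changes of 0.28 (adjusted p = 0.592) in TgSpi1FA−/− leukaemic cells and −0.40 (0.485) in model 2.

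Whether the leukaemic change differed between the models was tested as an interaction over all 17 libraries. Of the 10 genes 0 were called, against 4.61% of 14597 genes. An unadjusted p under 0.05 was found for 4 of the 10, against 25.8% of all genes. DESeq2's Wald test called 2 (Jak2 and Socs3), and 2037 of 22088 genes. Socs3 had the lowest adjusted p, with a difference of 3.31 (log2; 95% interval 1.12 to 5.50; adjusted p = 0.0681) between 2.37 in TgSpi1FA−/− cells and −0.94 in model 2. For Jak2 the difference was 0.98 (0.29 to 1.66; adjusted p = 0.0806), and it passed the test without P812 (1.16, adjusted p = 0.0196). For Stat5a it was −1.29 (−2.32 to −0.25; adjusted p = 0.113), so that a fall confined to TgSpi1FA−/− cells was not shown. For Pim1 it was 1.48 (adjusted p = 0.146).

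Other genes of EPO, KIT and JAK-STAT signalling were taken from a list of 97 genes, of which 85 were tested in model 1. Between TgSpi1FA−/− leukaemic and preleukaemic cells 24 of 85 were called (28.2%, against 13.3% of all genes), 12 higher and 12 lower, with a median log2 fold change of 0.01. By role, 11 of 20 kinases, 6 of 22 inhibitors, 4 of 15 STAT5 targets or effectors, 1 of 16 adaptors (Crk, 1.17), 1 of 8 ligands and receptors (Tfr2) and 1 of 4 other STAT genes (Stat2, −1.39) were called. In the comparison with TgSpi1FA+/+ preleukaemic cells 11 of 85 were called (12.9%, against 7.01% of all genes), 6 higher and 5 lower. Between preleukaemic groups 0 of 85 were called by edgeR (7 at an unadjusted p under 0.05, and 1, Fyn, by DESeq2's Wald test), and in model 2 0 of 83 (21 at an unadjusted p under 0.05, 6 by DESeq2's Wald test, and a median of −0.50). Over all genes, 8.65% had an unadjusted p under 0.05 between preleukaemic groups and 19.9% in model 2. The comparisons of leukaemic cells with each preleukaemic group share the leukaemic libraries.

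The kinases moved in both directions in TgSpi1FA−/− leukaemic cells, 4 up and 7 down. The JAK family kinase Jak3 rose by 2.16 (log2; adjusted p = 0.0426), from 2.59, 3.92 and 3.30 CPM in P77, P224 and P40 to 20.2, 10.8 and 12.9 CPM in L26, L28 and L39. Another member of that family, Tyk2, fell by 2.02 (adjusted p = 0.0165), from 121, 109 and 122 CPM to 47.1, 26.9 and 13.2 CPM, and Jak1 was at 119, 84.5 and 76.3 CPM in the leukaemic libraries (−1.34, adjusted p = 0.0372). The SRC family kinases Fyn and Src were at or near 0 in TgSpi1FA−/− preleukaemic cells. Fyn had 0 counts in all 3 TgSpi1FA−/− preleukaemic libraries and 47.7, 37.5 and 27.6 CPM in the leukaemic ones, which is at least 1198-fold higher (floor of 3 counts over the group). In TgSpi1FA+/+ preleukaemic libraries Fyn was at 0.281, 1.62, 0 and 0.142 CPM, and in model 2 at 1.21 CPM or less. Src rose by 5.13 (adjusted p = 0.0161), to 2.25, 6.62 and 22.3 CPM from 0.0985, 0.585 and 0.194 CPM.

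Of the receptors and other regulators, Tfr2, which encodes a transferrin receptor that associates with EPOR, fell by 2.19 (adjusted p = 0.0127). It was at 213, 291 and 182 CPM in the TgSpi1FA−/− preleukaemic and at 75.7, 44.4 and 30.7 CPM in the leukaemic libraries. Pik3cg, a catalytic subunit of phosphoinositide 3-kinase, fell by 1.94 (adjusted p = 0.0366). All 4 called STAT5 targets or effectors rose: Mcl1, a survival factor, by 1.39, Trib3 by 1.45, the cyclin Ccnd3 by 1.03 and the kinase Pim3 by 0.72. Mcl1 was at 838, 753 and 615 CPM in leukaemic against 244, 258 and 341 CPM in TgSpi1FA−/− preleukaemic libraries. None of the 4 targets among the 10 genes (Cish, Socs2, Socs3 and Pim1) was called by edgeR.

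Counts of a second table on hand for 7 of the mice of model 1 gave another view of the same members. Total counts there were 35497594 to 171572736 per library, and it held no TgSpi1FA−/− preleukaemic mice. In 6 of 7 mice a library of the first table was closest to that of the same number in the second, whereas P445 was closest to P479. Over the 10 genes, the median absolute log2 difference between the tables was 0.25 in P451 to 0.52 in P138, and it was 0.30 in P445. Single genes differed by more than 1 on the log2 scale in P445, P479 and P138. In P445, Kit was at 13.9 against 223 CPM in the first table, Cish at 178 against 53.5 CPM and Pim1 at 614 against 291 CPM. In P479, Kit was at 67.3 against 203 CPM, and in P138, Cish was at 124 against 42.3 CPM and Socs2 at 20.4 against 43.8 CPM. Kit in L26 was at 866 against 811 CPM, and 30 of its 37 neighbours were up in the second table, against 26.2% of all genes. There the 3 genes lying 2 to 10 Mb after Kit had a median of −0.52, and 0 of them were up. The fold change of Stat5a between TgSpi1FA−/− leukaemic and TgSpi1FA+/+ preleukaemic mice was −1.03 in that table, but its adjusted p was 0.178, and −0.92 (0.327) without P445. Ratios of Stat5a to Stat5b were 0.617, 0.466 and 0.279 in L26, L28 and L39 and 1.05, 0.939, 0.814 and 0.681 in P445, P479, P451 and P138, again without overlap (difference −0.99, exact permutation test, p = 0.0571, n = 3 against 4).

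**Figure D5:**
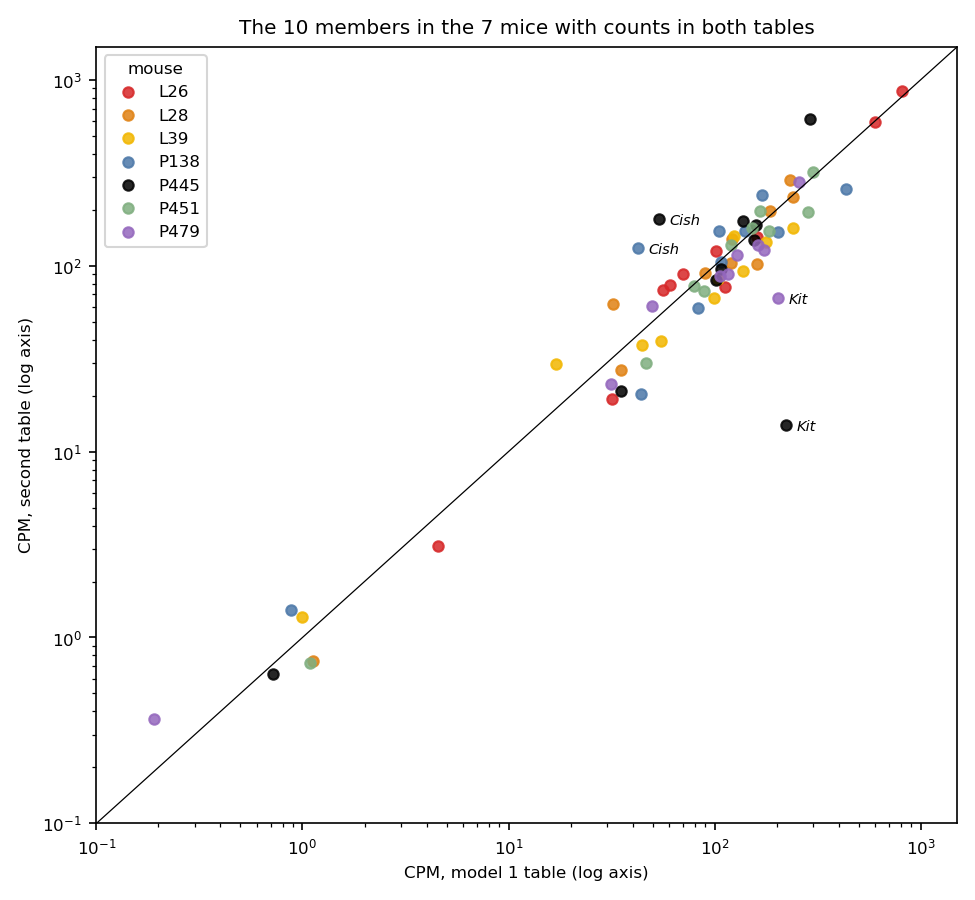
CPM of the 10 genes in the first and second count tables for the 7 mice present in both, on log axes, with the line of equal values. The points farthest from the line are Kit in P445 (223 against 13.9 CPM) and P479 (203 against 67.3 CPM), Cish in P445 and P138, Socs2 in P138 and Pim1 in P445.

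The genes most like Epor, Kit and Cish were those with the smallest root mean square difference of log2 CPM over the 17 libraries, each gene centred within its model, among 8946 genes. For Epor these were Rp9 (0.23), Eif3g (0.26) and Keap1 (0.26), all on chromosome 9 and 0.452, 1.06 and 0.729 Mb from Epor. The 17 libraries include P812, in which Epor was 2.04 above the other mice and 55 of 68 neighbours within 2 Mb were up. The part of that library in this likeness was not tested. For Cish the closest genes were Sgms1 (0.26), Myd88 (0.27) and Ryk (0.28). For Kit the closest genes were less alike, with Bcl2l2, Cd151 and Sirt3 all at 0.51, against a median of 0.82 over all genes. Within the set, the member closest to Cish was Pim1 (0.47, place 598 of the 8946 genes), and the member closest to Epor was Stat5b (0.53, place 540). A gene that did not vary at all within the models would be at 0.55 from Cish and at 0.55 from Epor. The place of Stat5b is thus little closer to Epor than that of a gene without variation. These values share the same libraries and are a description.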

How the data were processed

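PolyA RNA of cultured erythroid blasts was measured in 17 libraries, 1 per mouse. The authors deposited raw counts of reads per Ensembl gene, without normalization. The submitters' processing notes name bcl2fastq 2.17.1.14, STAR 2.5.3a, HTSeq 0.6.1p1 and the build GRCm38 (mm10); the strand setting is not given in the sources used here. Groups came from the sample titles. Counts were filtered with filterByExpr, scaled by TMM and tested with glmQLFit and glmQLFTest of edgeR 4.0.16 (R 4.3.3), in 1 fit per model and 1 fit of all 17 libraries over the shared genes for the interaction. P-values were adjusted by Benjamini-Hochberg over all genes tested, and a call required a fold change of 1.5 or more besides an adjusted p under 0.05. The fits were tested on simulated data. DESeq2 1.42.0 was an alternative, as were other filters and scalings, single groups, left-out mice and a second count table. Exact permutation tests used scipy 1.17.1. Annotation was GENCODE M21 and promoters came from RefSeq (GRCm38.p6). All 10 genes are described in every comparison. Of the pathway list, at most the 6 called genes with the largest change per comparison and at least 10 mean counts were to be named. Mcl1, Ccnd3, Pim3, Crk, Stat2 and Rpsa-ps10 are named outside that rule, after their values were seen. The genes, lists and tests were chosen with earlier results of these data known. With 1 library per mouse, p-values measure the spread between these cultures.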

Additional observations from a re-analysis of the deposited data

Results flagged for a closer look

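Of 20 groups of 4 libraries checked for the 10 genes, 2 held a library far from the other 3, by Dixon's 95% limit on the gap to the nearest library over the range, and chance gives about 1 in 20. Among the preleukaemic mice of model 2, P633 was low for Cish (46.8 CPM against 77.7 to 81.5), and its gap to the nearest library was 0.891 of the range. In the same group P812 was high for Pim1 (435 CPM against 229.7 to 237), with a gap of 0.962 of the range.

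In 6 of 88 tested genes of the pathway list (6.82%, against 4.61% of all genes) the leukaemic change differed between the models by the interaction test of edgeR. The difference (log2, TgSpi1FA−/− cells minus model 2) was −1.31 for the inhibitor Dok1 (adjusted p = 0.0412). It was 1.38 for Sos1 (0.0453), which the list counts with the adaptors, and 1.69 for the adaptor Irs2 (0.0345). For Sh2b3, which encodes the JAK2 inhibitor LNK, it was 1.89 (0.0298), and for the cyclin Ccnd3 it was 2.47 (0.0285). Irs2 was at a mean of 130 CPM in TgSpi1FA−/− leukaemic and 127 CPM in preleukaemic cells, and at 18.8 and 60.6 CPM in the leukaemic and preleukaemic cells of model 2. Ccnd3 was at 332 and 163 CPM in the former and at 95.04 and 260.1 CPM in the latter. For Fyn the fitted difference of 16.28 (0.0380) depends on the prior count, since 1 group had no counts, and is no measure of size.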

How the results depend on the processing

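No paired analysis was possible because no mouse number occurs in more than 1 group. Of 718 recomputed values for single genes 661 kept their direction and side of the threshold, 40 changed sign, 6 passed it and 11 no longer did. The alternatives with P445 left out of the second table, or P445 and P479 left out of the first, were chosen after seeing the data. The cause of the changes below was not tested, except that settings with fewer mice have fewer samples.

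Counts of called genes changed as follows. Over all genes, DESeq2's Wald test called 3099 for TgSpi1FA−/− leukaemic against preleukaemic cells (1782 by edgeR) and 256 between preleukaemic groups (1). It called 2245 for leukaemic against TgSpi1FA+/+ preleukaemic cells (939), 470 in model 2 (0) and 2037 for the difference between models (673). With DESeq2's Wald test the 10 genes had 2 calls for TgSpi1FA−/− leukaemic against preleukaemic cells (1 by edgeR) and 2 for the difference between models (0), and the pathway list had 1 call between preleukaemic groups (0), 26 for leukaemic against TgSpi1FA+/+ preleukaemic cells (11), 6 in model 2 (0) and 15 for the difference (6). When a fit held no other groups than those compared, the list had 14 calls against TgSpi1FA−/− preleukaemic cells (24) and 7 against TgSpi1FA+/+ preleukaemic cells, where the 10 genes had 0. Such fits gave 1205 and 635 calls over all genes. Against TgSpi1FA+/+ preleukaemic cells the 10 genes also had 0 calls with P445 and P479 averaged, and with both left out. The same held in the second table, with and without P445. In this order the list had 3, 0, 6 and 2 calls, and all genes had 112, 16, 267 and 38. With each mouse left out in turn, the 10 genes had 0 to 2 calls against TgSpi1FA−/− preleukaemic cells. They had 0 to 1 against TgSpi1FA+/+ preleukaemic cells and 0 to 1 for the difference. In the same order the list had 7 to 26, 1 to 22 and 0 to 11 calls. All genes had 414 to 2319, 53 to 1911 and 1 to 1359.

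Signs of small log2 fold changes turned. For Stat5b in TgSpi1FA−/− leukaemic cells DESeq2's test gave 0.00725 and its size factors gave 0.0122. With P445 and P479 left out, the difference between preleukaemic groups was −0.19 for Kit, 0.0552 for Stat5b and −0.00584 for Cish, and the difference of leukaemic from TgSpi1FA+/+ preleukaemic cells was 0.00955 for Stat5b and −0.16 for Socs2. With both averaged, Stat5b was 0.0151 in the former and Socs2 −0.0207 in the latter. In the second table Pim1 was −0.0871. With each mouse left out, leukaemic against TgSpi1FA−/− preleukaemic values ran from −0.39 to 0.77 for Kit, −0.00609 to 0.48 for Lyn, −0.16 to 0.20 for Stat5b and −0.18 to 1.06 for Pim1. Between preleukaemic groups they ran from −0.0222 to 0.41 for Kit, −0.12 to 0.0334 for Jak2, −0.27 to 0.23 for Lyn, −0.11 to 0.0716 for Stat5b, −0.00630 to 0.31 for Cish and −0.55 to 0.0249 for Socs2. Against TgSpi1FA+/+ preleukaemic cells they ran from −0.26 to 0.90 for Kit, −0.17 to 0.185 for Stat5b, −0.22 to 0.19 for Socs2 and −0.52 to 0.73 for Pim1. In model 2 they ran from −0.90 to 0.21 for Lyn and −0.28 to 0.23 for Stat5a, and for the difference between models from −0.37 to 0.59 for Epor, −0.0291 to 1.05 for Lyn and −0.87 to 0.19 for Cish. Depth limited Socs3 most, which had 6 to 165 counts per library.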
